A study of Mus musculus with 16 samples.

Results

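The 42 genes described here encode the proteins that bring glucose into a muscle fiber, split it to pyruvate and lactate, and store it as or release it from glycogen. They were chosen by name, step by step along the pathway, and all 42 were found among the 24421 genes counted in gastrocnemius (Gas) and soleus (Sol) muscle. After a filter on low counts 41 of them could be tested in every comparison. The remaining one, *Eno1*, held 0 to 6 reads in each library.

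Glucose enters a fiber through transporters of the SLC2A family and is trapped by hexokinase. Glycolysis then converts it to pyruvate through a chain of enzymes, most of which exist as several isozymes encoded by separate genes, and lactate dehydrogenase and the monocarboxylate transporters form and move lactate. Fibers also build glycogen on a glycogenin core and break it down with glycogen phosphorylase, which phosphorylase kinase switches on. Fast-twitch fibers, which fill most of Gas, are known for high glycolytic capacity, whereas slow-twitch fibers, abundant in Sol, rely more on oxidation of lactate and fatty acids.

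RNA-seq was performed on 16 libraries, 3 from WT and 5 from LSD1-mKO mice in each muscle. All mice were 8-week-old C57BL/6 males that received tamoxifen (75 mg/kg, 5 days) and, from the 4th tamoxifen day, dexamethasone (Dex, a synthetic glucocorticoid that causes muscle atrophy, 1 mg/kg, 7 days). The paper states that mice taken for tissue analysis were fasted beforehand. LSD1-mKO mice were Lsd1 flox/flox; TgACTA1-CreERT2/+, and WT mice carried the floxed *Lsd1* without CreERT2. LSD1 is a histone demethylase encoded by *Kdm1a*, and Cre was driven by the human ACTA1 promoter, so cells other than muscle fibers kept their *Kdm1a* in the whole-muscle RNA. Muscle without Dex was not analysed here, so no value below measures a response to Dex. In bulk muscle, fewer fibers of a type and less RNA per fiber cannot be told apart.

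Each library held 10130415 to 24576377 reads assigned to genes. Values are given as CPM, reads of a gene scaled to a common library size after correction for composition. Before that correction 3 reads, the limit that a count of 0 allows, correspond to 0.122 to 0.296 CPM. *Kdm1a* was 41.8 ± 5.69 CPM (mean ± SD) in WT Gas and 14.2 ± 2.19 CPM in LSD1-mKO Gas, and 34.1 ± 0.749 CPM in WT Sol and 10.9 ± 1.72 CPM in LSD1-mKO Sol, with no overlap between genotypes in either muscle. The 10 fast fiber markers summed to 174904 to 223113 CPM in WT Gas and 56409 to 69915 CPM in WT Sol, and the 9 slow fiber markers to 1291 to 2775 CPM and 32548 to 38474 CPM, so the tissue labels and the markers went together. No marker passed the test between genotypes in either muscle, but the 5 fibroblast markers summed to 773 to 922 CPM in LSD1-mKO Gas and 1105 to 1670 CPM in WT Gas. In 3 libraries (WT Gas replicate 3, LSD1-mKO Gas replicate 5 and WT Sol replicate 2) ribosomal protein genes stood above those of the other libraries of the same muscle.

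Reads of the 42 genes made up 5.5 to 7.22% of all assigned reads in WT Gas and 6.26 to 7.55% in LSD1-mKO Gas. In Sol they made up 2.32 to 2.92% in WT and 2.38 to 2.56% in LSD1-mKO. Per kilobase of mRNA, *Aldoa*, the muscle aldolase, was the most abundant member, with 14438 ± 1631 CPM per kb in WT Gas and 3340 ± 799 CPM per kb in WT Sol. *Eno3*, the muscle enolase, came next in WT Gas at 5468 ± 700 CPM per kb. *Pygm*, muscle glycogen phosphorylase, followed at 3033 ± 1059 CPM per kb, *Pgam2*, muscle phosphoglycerate mutase, at 2997 ± 1174 CPM per kb and *Gapdh* at 2346 ± 530.0 CPM per kb. *Pygm* and *Pgam2* lay within 1 SD of each other, and *Gapdh* lay within the SD of either of them. In the other steps the leading genes in WT Gas were *Ldha* at 2010 ± 542 CPM per kb, the phosphatase-targeting subunit *Ppp1r3c* at 446 ± 164, *Ugp2* of glycogen synthesis at 264 ± 69.0 (*Pgm2*, which has no length here and more reads, was not ranked), the insulin-regulated transporter *Slc2a4* (GLUT4) at 250 ± 48.9, and *Fbp2*, muscle fructose bisphosphatase, at 132 ± 34.3 CPM per kb.

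The muscles differed in most of the pathway. In WT mice 23 of the 41 members passed the test between Gas and Sol (adjusted p under 0.05, edgeR's quasi-likelihood test), 19 higher and 4 lower in Gas, against 7.81% of all 12938 genes tested (3.8% higher and 4.02% lower). In LSD1-mKO mice 30 members passed, 22 higher and 8 lower in Gas, against 29.7% of 13151 genes (14.8% higher and 15% lower). The median log2 fold change of the members, Gas over Sol, was 1.02 in both genotypes, while that of all genes was 0.02 in WT and 0.01 in LSD1-mKO. Of the 41 members, 18 were called higher in Gas in both genotypes and 4 lower in both. The remaining calls were made in 1 genotype only, and the difference between genotypes in these folds is tested further on. Libraries of the 2 muscles were counted in separate tables, and any difference in their handling cannot be told apart from the muscle. The WT count rested on single libraries: 12 members passed once WT Sol replicate 3 was left out, 13 once WT Sol replicate 1 was, and 28 once WT Gas replicate 3 was. Over all genes 308 of 13274, 317 of 13179 and 1633 of 13236 passed, in the same order. With the 3 libraries high in ribosomal protein genes left out together, 33 of 40 members tested passed in WT, 23 higher and 10 lower, and 26 of 41 in LSD1-mKO mice, 21 higher and 5 lower. Over all genes 4596 of 13052 then passed in WT (2310 higher and 2286 lower) and 3641 of 13259 in LSD1-mKO mice (1870 higher and 1771 lower). The muscles did not overlap in 35 members in WT (22 higher and 13 lower in Gas), against 30.9% of genes (15.1% higher and 15.8% lower), and in 23 in LSD1-mKO mice (19 higher and 4 lower), against 21.3% of genes (10.2% higher and 11.1% lower). Beside these, all 9 slow fiber markers were lower in Gas in both genotypes, and of the 10 fast fiber markers 5 were higher and 1 lower in WT and 8 higher and 1 lower in LSD1-mKO mice. Their part in the result was not tested. In LSD1-mKO mice the replicate numbers paired the muscles, and with the replicate as a block 35 members passed, 24 higher and 11 lower, adding calls for *Hk2*, *Pfkfb1*, *Gyg*, *Phka1* and *Phka2*. Over all genes 5067 of 13151 passed with the block, 2530 higher and 2537 lower.

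**Figure D1:**
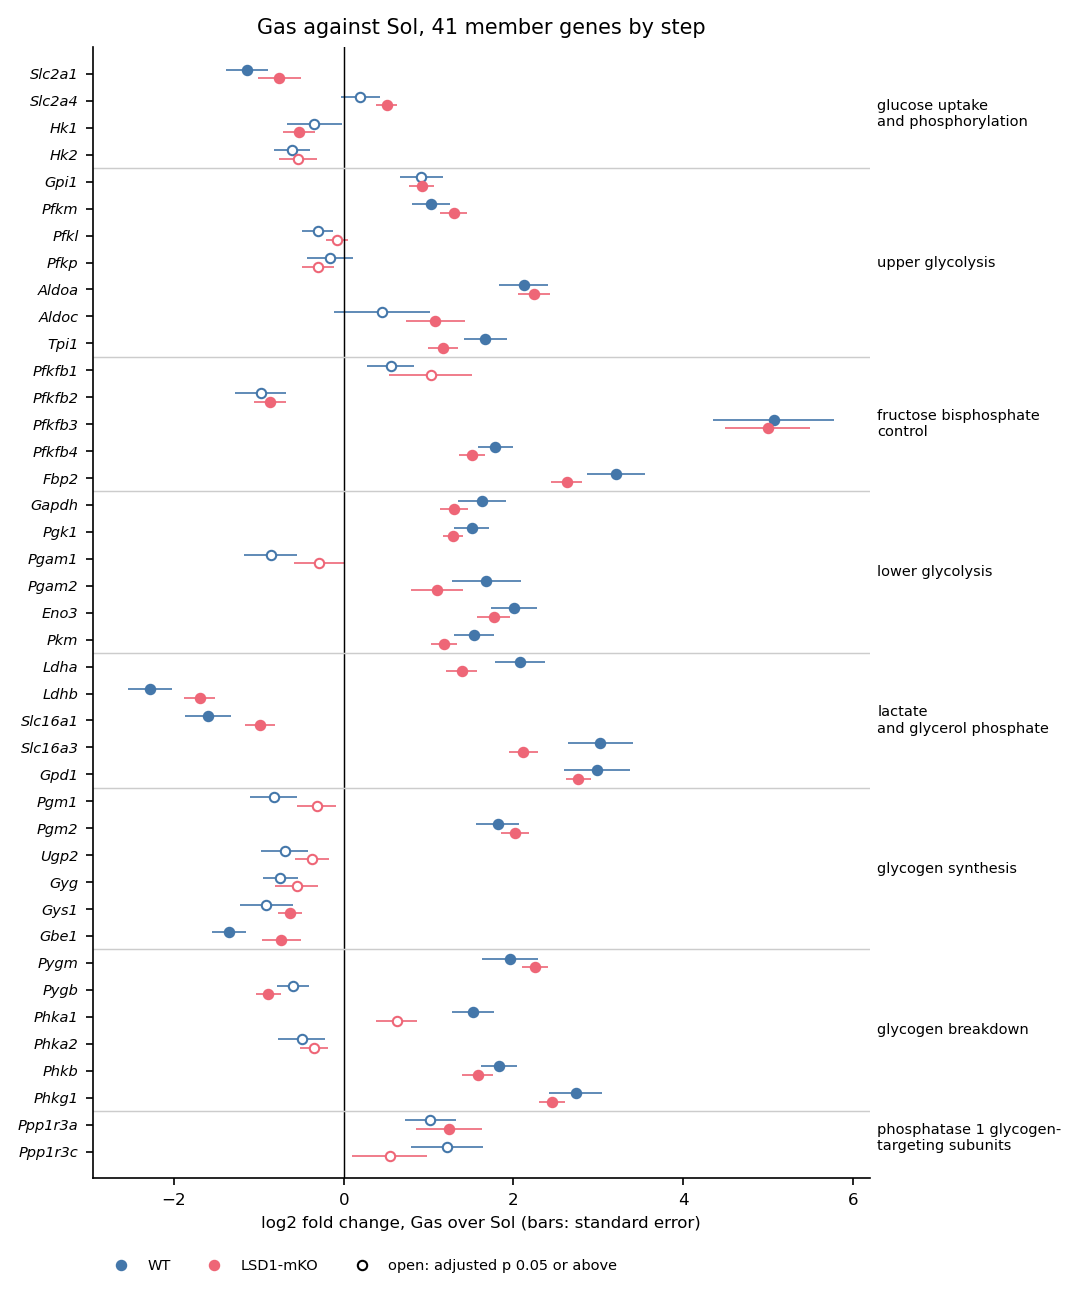
Log2 fold change of Gas over Sol for the 41 tested members, grouped by step, in WT (blue) and LSD1-mKO (red). Bars are the standard error and open points have an adjusted p of 0.05 or more; the steps of upper and lower glycolysis lie mostly to the right of 0, and *Ldhb*, *Slc16a1* and *Gbe1* to the left in both genotypes.

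At the entry of glucose, *Slc2a1* (GLUT1, the transporter of most cell types) was lower in Gas in both genotypes. It was the single member of the 4 in this step called in WT (log2 fold change −1.14, SE 0.246, adjusted p = 0.0311). In LSD1-mKO mice *Slc2a4* was higher in Gas (0.51, SE 0.126, adjusted p = 0.00985), and *Slc2a1* (−0.76, SE 0.253, adjusted p = 0.0378) and *Hk1*, the housekeeping hexokinase (just inside the threshold), were lower. The calls for *Slc2a1* and *Hk1* were lost in most of the fits that left out 1 library. *Slc2a4* was 739, 659.7 and 497 CPM in the WT Gas libraries and 572, 582 and 511 CPM in the WT Sol libraries, which overlap. *Hk2*, the muscle hexokinase, was 338 ± 50.9 CPM in WT Gas and 518 ± 32.4 CPM in WT Sol and did not pass (adjusted p = 0.132).

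In upper glycolysis, from glucose 6-phosphate to the triose phosphates, 3 of 7 members were higher in Gas in WT and 5 in LSD1-mKO, and none was lower. *Aldoa* held 29712, 25190.0 and 24102 CPM in WT Gas and 5322, 7773 and 5184 CPM in WT Sol. The muscles did not overlap, and Gas was 4.35-fold higher (log2 fold change 2.12, SE 0.290, adjusted p = 0.00541). *Pfkm*, muscle phosphofructokinase, and *Tpi1*, triosephosphate isomerase, were the other members called in both genotypes, and *Gpi1*, which makes fructose 6-phosphate, was added in LSD1-mKO mice. *Pfkl* and *Pfkp*, the liver and platelet phosphofructokinases, stayed at 5.73 to 20.8 CPM in all libraries and did not pass in either genotype. *Aldoc*, the brain aldolase, was called higher in Gas in LSD1-mKO mice, but it held 6 to 33 reads a library and rests on few of them.

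The step at fructose 6-phosphate is set by bifunctional enzymes that make or remove fructose 2,6-bisphosphate, an activator of phosphofructokinase, and by *Fbp2*, which runs it backwards. *Fbp2* held 183, 131 and 224 CPM in WT Gas and 15.1, 28.1 and 15.4 CPM in WT Sol. The lowest Gas library was above every Sol library, and Gas exceeded Sol by 3.21 on the log2 scale (SE 0.345, adjusted p = 0.00258), the smallest p of any member in WT. In LSD1-mKO mice *Fbp2* was 94.1, 82.4, 130.3, 118 and 163 CPM in Gas and 16.5 to 21.7 CPM in Sol (log2 fold change 2.63, SE 0.184, adjusted p = 1.17e-06). *Pfkfb4*, one of the bifunctional enzymes, was 58.9, 52.2 and 41.8 CPM in WT Gas and 14.8, 14.3 and 15.6 CPM in WT Sol (1.79, SE 0.207, adjusted p = 0.00316). *Pfkfb3*, singled out after its values were seen, had the largest fold of any member in both genotypes. It ranged from 140.5 to 774 CPM in the WT Gas libraries and from 8.28 to 21.6 CPM in the WT Sol libraries, a 33.5-fold difference in WT and a 31.9-fold difference in LSD1-mKO mice. *Pfkfb2*, the heart form, was lower in Gas in LSD1-mKO mice.

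In lower glycolysis, from glyceraldehyde 3-phosphate to pyruvate, *Gapdh*, *Pgk1*, *Pgam2*, *Eno3* and *Pkm* were all higher in Gas in both genotypes, 5 of the 6 members tested. *Eno3* held 8449, 7528 and 9712 CPM in WT Gas and 2109, 2640 and 1696 CPM in WT Sol, with no overlap and a 4.01-fold higher level in Gas (adjusted p = 0.00550). *Pgam1*, the mutase of most other tissues, held 16 to 221 reads and did not pass. The lowest log2 fold change among the 5 called members was 1.51 in WT (*Pgk1*) and 1.10 in LSD1-mKO mice (*Pgam2*). Reads that map to several places were left out of the counts, so *Gapdh*, *Eno1* and *Pgam1*, which have near-identical copies, are uncertain in level.

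In lactate handling the isozyme and transporter pairs moved in opposite directions between the muscles, in both genotypes. Opposite calls were also made in other steps in LSD1-mKO mice. There *Slc2a4* and *Pygm* were higher in Gas, and their partners *Slc2a1* and *Pygb* lower. *Ldha* encodes the muscle subunit of lactate dehydrogenase, which favors making lactate, and *Ldhb* the heart subunit, which favors its use. *Slc16a3* (MCT4) exports lactate from fibers and *Slc16a1* (MCT1) imports it. *Ldha* held 3452, 3008 and 4966 CPM in WT Gas and 802, 1134 and 787 CPM in WT Sol, and *Ldhb* 171, 172 and 247 CPM in Gas and 854, 1108 and 927 CPM in Sol. Each gene's muscles did not overlap. *Ldha* was 4.22-fold higher in WT Gas (log2 fold change 2.08, SE 0.298, adjusted p = 0.00632) and *Ldhb* 4.86-fold lower (−2.28, SE 0.254, adjusted p = 0.00292).

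*Slc16a3* held 625, 579 and 298 CPM in WT Gas and 60.7, 81.6 and 43.6 CPM in WT Sol (log2 fold change 3.03, SE 0.379, adjusted p = 0.00395). *Slc16a1*, the partner named with it, held 40.3, 53.4 and 69.0 CPM in Gas and 201, 134 and 159.6 CPM in Sol (−1.59, SE 0.271, adjusted p = 0.0130). Both genes separated the muscles without overlap, in opposite directions. *Gpd1*, glycerol 3-phosphate dehydrogenase, which passes electrons from glycolysis to mitochondria, held 856, 837 and 358 CPM in WT Gas and 86.4, 104 and 69.9 CPM in WT Sol. Gas exceeded Sol by 2.99 on the log2 scale (SE 0.387, adjusted p = 0.00439), and in LSD1-mKO mice it had the smallest p of any member (2.77, SE 0.147, adjusted p = 1.14e-07), with 581 to 834 CPM in Gas and 89.6 to 112 CPM in Sol.

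**Figure D2:**
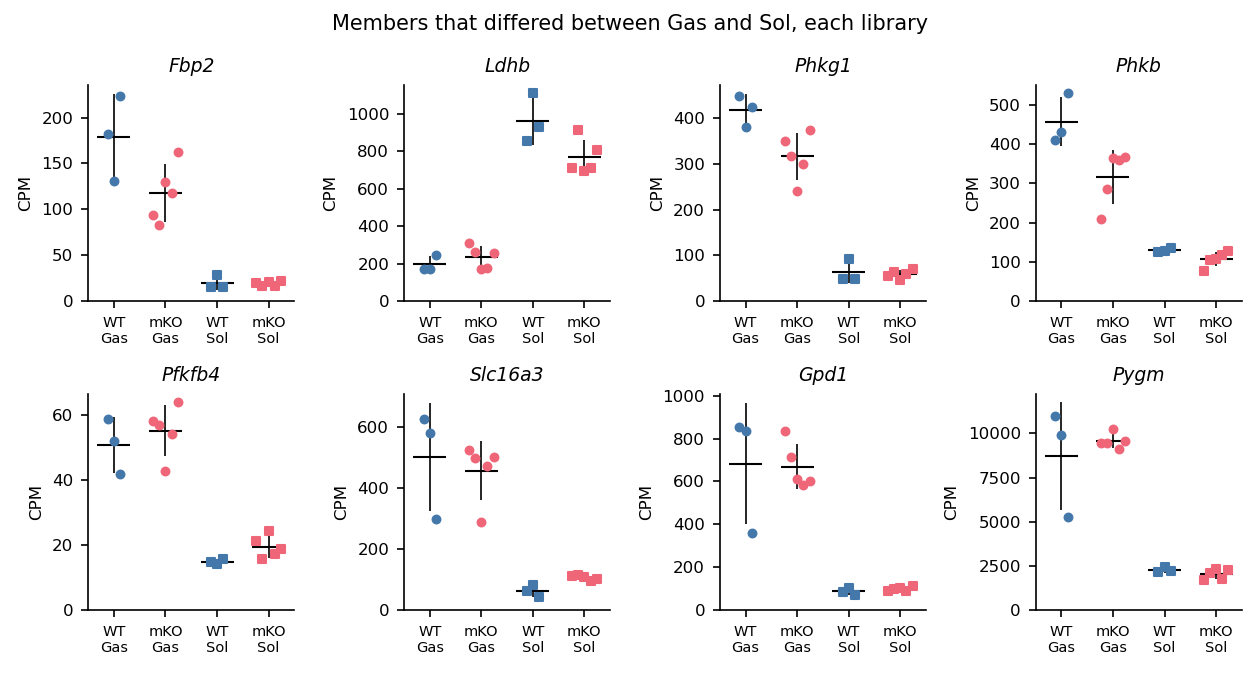
CPM in each of the 16 libraries for *Fbp2*, *Ldhb*, *Phkg1*, *Phkb*, *Pfkfb4*, *Slc16a3*, *Gpd1* and *Pygm* in the 4 groups, with the mean as a line and the SD as a bar. *Ldhb* lies higher in the Sol groups and the other 7 genes higher in the Gas groups; in WT Gas replicate 3, *Pygm* (5261 CPM), *Gpd1* (358 CPM) and *Slc16a3* (298 CPM) lie below the other 2 libraries.

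The 250 bases before the start of 5 of these genes are shown because their levels separated the muscles or the genotypes, read from RefSeq on GRCm38.p6. The windows are chr7:46845554-46845803 on the plus strand for *Ldha* (the first of its annotated starts), chr6:142507958-142508207 on the minus strand for *Ldhb*, chr11:120948817-120949066 plus for *Slc16a3*, chr3:104638414-104638663 plus for *Slc16a1* and chrX:102644247-102644496 minus for *Phka1*. The genes themselves span, in the GENCODE annotation of that build, 46841475 to 46855627 on chromosome 7 (*Ldha*), 142490249 to 142507957 on chromosome 6 (*Ldhb*), 120948480 to 120960868 on chromosome 11 (*Slc16a3*), 104638668 to 104658462 on chromosome 3 (*Slc16a1*) and 102513975 to 102644246 on chromosome X (*Phka1*). Capitals mark matches on either strand of ACGTG, the hypoxia response core, which overlaps the E-box CANNTG where the letters read CACGTG, of CANNTG, of the MEF2 site core, which is CTA and TAG with 4 bases between, and of AGAACA, a part of the glucocorticoid receptor site.
*Ldha*: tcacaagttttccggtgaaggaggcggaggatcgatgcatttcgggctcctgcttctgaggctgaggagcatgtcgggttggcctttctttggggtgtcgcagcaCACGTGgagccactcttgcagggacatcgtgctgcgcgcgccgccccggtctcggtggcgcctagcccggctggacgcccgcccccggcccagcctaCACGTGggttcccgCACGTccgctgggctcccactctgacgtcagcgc
*Ldhb*: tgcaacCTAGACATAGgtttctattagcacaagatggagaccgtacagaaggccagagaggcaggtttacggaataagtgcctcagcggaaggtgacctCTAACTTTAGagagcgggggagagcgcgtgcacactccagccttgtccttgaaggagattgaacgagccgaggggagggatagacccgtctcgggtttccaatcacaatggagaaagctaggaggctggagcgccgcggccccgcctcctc
*Slc16a3*: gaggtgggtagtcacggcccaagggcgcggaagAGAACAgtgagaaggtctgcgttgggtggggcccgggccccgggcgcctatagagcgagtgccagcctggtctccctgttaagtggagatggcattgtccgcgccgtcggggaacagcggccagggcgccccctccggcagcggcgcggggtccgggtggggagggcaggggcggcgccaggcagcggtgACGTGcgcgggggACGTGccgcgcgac
*Slc16a1*: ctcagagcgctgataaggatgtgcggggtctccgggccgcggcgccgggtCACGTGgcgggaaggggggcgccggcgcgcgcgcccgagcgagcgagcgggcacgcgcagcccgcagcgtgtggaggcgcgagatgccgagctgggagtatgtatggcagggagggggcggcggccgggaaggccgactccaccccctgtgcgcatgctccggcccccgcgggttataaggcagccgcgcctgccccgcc
*Phka1*: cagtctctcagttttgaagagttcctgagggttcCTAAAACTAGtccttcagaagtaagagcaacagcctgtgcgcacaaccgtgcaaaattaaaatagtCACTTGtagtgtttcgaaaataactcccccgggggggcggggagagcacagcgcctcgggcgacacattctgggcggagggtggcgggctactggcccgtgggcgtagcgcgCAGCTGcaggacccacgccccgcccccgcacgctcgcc
The printed windows of *Ldha*, *Slc16a3* and *Slc16a1* hold ACGTG, *Ldhb* and *Phka1* hold the MEF2 core, and *Slc16a3* holds AGAACA. The window of the second *Ldha* start, not printed, holds 0 matches of ACGTG. Of the 32851 windows of this length in the table, 16.6% hold ACGTG, 66.2% CANNTG, 3.2% the MEF2 core and 16.1% AGAACA. Among the 58 windows of the members that have one (40 of 42 genes), 39.7%, 67.2%, 5.17% and 20.7% do, in the same order. A match is a run of letters and was not tested as a binding site.

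In glycogen synthesis the genes went both ways. *Pgm2*, a phosphoglucomutase that feeds glucose 1-phosphate into the pathway, was higher in Gas in both genotypes, with 1584, 1545 and 1070.5 CPM in WT Gas and 373, 441 and 391 CPM in WT Sol (log2 fold change 1.81, SE 0.250, adjusted p = 0.00555). In LSD1-mKO mice it was 900.5 to 1576 CPM in Gas and 276 to 368 CPM in Sol (2.02, SE 0.170, adjusted p = 5.86e-06). *Gbe1*, the branching enzyme, was lower in Gas, with 63.5, 75.0 and 66.2 CPM in WT Gas and 196, 159.9 and 169.6 CPM in WT Sol (−1.35, SE 0.200, adjusted p = 0.00720). *Gys1*, muscle glycogen synthase, was also lower in Gas in LSD1-mKO mice. *Ugp2*, UDP-glucose pyrophosphorylase, held 679, 612 and 983 CPM in WT Gas and 1555, 1026 and 1124 CPM in WT Sol and did not pass (adjusted p = 0.174). *Pgm1* and *Pgm2* have exchanged symbols between annotation versions, so no position is given for them.

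In glycogen breakdown 4 of 6 members were higher in Gas in WT. *Pygm* held 10989.6, 9904 and 5261 CPM in WT Gas and 2133, 2442 and 2221 CPM in WT Sol. All Gas libraries lay above all Sol libraries, a 3.88-fold difference (log2 fold change 1.96, SE 0.330, adjusted p = 0.0124). In LSD1-mKO mice *Pygm* was 9117 to 10232 CPM in Gas and 1681 to 2299 CPM in Sol (2.26, SE 0.153, adjusted p = 1.05e-06). Phosphorylase kinase has a catalytic subunit, *Phkg1*, and regulatory subunits, among them *Phka1* and *Phkb*. *Phkg1* held 449, 379.7 and 424 CPM in WT Gas and 49.1, 91.7 and 49.0 CPM in WT Sol (2.73, SE 0.311, adjusted p = 0.00311), and *Phkb* 412, 431 and 529.7 against 125, 126 and 136 CPM (1.83, SE 0.211, adjusted p = 0.00316). *Phka1* was called in WT (1.53, SE 0.248, adjusted p = 0.0104) and not in LSD1-mKO mice (0.62, SE 0.241, adjusted p = 0.0673, or 0.00355 with the replicate block). *Pygb*, the brain phosphorylase, was lower in Gas in LSD1-mKO mice. Of the protein phosphatase 1 glycogen-targeting subunits, *Ppp1r3a* was higher in Gas in LSD1-mKO mice and *Ppp1r3c* passed in neither genotype.

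Between genotypes no member passed the test in either muscle. In Gas 0 of 41 members had an adjusted p under 0.05, against 0.0307% of 13040 genes, and 9 members had an unadjusted p under 0.05, against 9.06% of genes. DESeq2 called 1 member, *Phka1*, and so did the fit over all 16 libraries. Over all genes DESeq2 called 132 of 13040 and that fit 62 of 13749, against 4 of 13040 in the test above. The groups did not overlap in 7 members, against 7.01% of genes: *Gbe1* was higher in LSD1-mKO, and *Phkg1*, *Tpi1*, *Phkb*, *Gyg*, *Phka1* and *Ppp1r3c* were lower (2.91% of genes were lower without overlap and 4.1% higher). The median log2 fold change, LSD1-mKO over WT, was −0.03 for the members and 0.01 for all genes. The sums of the 5 fibroblast markers did not overlap between the genotypes in Gas, but each marker taken alone did overlap. Most of the sum was *Dcn*, at 652 to 1489 CPM in WT Gas and 510 to 677 CPM in LSD1-mKO Gas. The part of these markers in the values above was not tested.

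The member with the smallest p in Gas was *Phka1*, the muscle regulatory subunit of phosphorylase kinase. It held 582, 681 and 524 CPM in WT Gas and 128, 247, 205, 348 and 271 CPM in LSD1-mKO Gas. The highest LSD1-mKO library lay below the lowest WT library, with a log2 difference of −1.31 (SE 0.284, adjusted p = 0.248), a 2.48-fold lower level. Its adjusted p was 0.0039 with DESeq2 and 0.0372 in the fit over all 16 libraries. With the replicate block it was 0.266, and with 1 library left out 0.2085 to 0.6252. *Phka2*, the liver form of that subunit, held 11.5, 7.33 and 5.78 CPM in WT Gas and 16.4, 13.2, 12.2, 11.2 and 10.5 CPM in LSD1-mKO Gas, which overlap (0.63, SE 0.254, adjusted p = 0.531).

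*Ppp1r3c*, which holds protein phosphatase 1 on glycogen, was 1728, 908 and 1011 CPM in WT Gas and 687, 528, 116, 307 and 507 CPM in LSD1-mKO Gas, without overlap (−1.50, SE 0.465, adjusted p = 0.426). *Gyg*, glycogenin, was 348, 318 and 379 CPM in WT and 191, 209, 207, 308 and 264 CPM in LSD1-mKO Gas, also without overlap (−0.56, SE 0.205, adjusted p = 0.490). *Ldha* was 2733, 2224, 1812, 2060 and 3183 CPM in LSD1-mKO Gas, where its highest library passed the lowest WT library (−0.66, SE 0.254, adjusted p = 0.523). *Gbe1* was 82.5, 128, 98.5, 77.0 and 95.5 CPM in LSD1-mKO Gas against 63.5 to 75.0 CPM in WT (0.50, SE 0.201, adjusted p = 0.529). None of these 4 members passed the test. LSD1-mKO Gas replicate 3 held the lowest Gas value for 14 of 41 members, among them *Ldha*, *Ppp1r3c*, *Tpi1* and *Phkg1*. WT Gas replicate 3 held it for 13 members, among them *Pygm*, *Gpd1* and *Gys1*. Whether the tissue of these libraries differed was not tested.

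In Sol 0 of 41 members passed, against 0.967% of 13342 genes, and 8 had an unadjusted p under 0.05, against 15.5% of genes. By DESeq2 2 members passed, and so did 605 of the 13342 genes. The groups did not overlap in 4 members, against 11.1% of genes, with *Slc16a3* and *Gpi1* higher (6.09% of genes) and *Gyg* and *Pgm2* lower (5.04%) in LSD1-mKO. These counts scale the Sol libraries among themselves, and on the printed CPM, which scale all 16 libraries together, *Pfkfb4* and *Phka2* were also higher without overlap, by narrow margins, 6 members in all. The median log2 fold change was −0.04 for the members and −0.01 for all genes.

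The lowest p in Sol belonged to *Slc16a3*, the lactate exporter, which held 60.7, 81.6 and 43.6 CPM in WT and 110.3, 114, 108, 95.2 and 103 CPM in LSD1-mKO. Every LSD1-mKO library lay above every WT library (log2 fold change 0.76, SE 0.188, adjusted p = 0.0840). It passed with DESeq2 (adjusted p = 0.00688), with no filter on low counts (0.0356) and without WT Sol replicate 2 (1.02, adjusted p = 0.0432). It did not pass with the replicate block (adjusted p = 0.0698) or with any other single library left out (log2 fold change down to 0.58, adjusted p up to 0.233). *Gapdh* held 1064, 1403 and 968 CPM in WT and 1607, 1808, 1878, 1382 and 1807 CPM in LSD1-mKO Sol (0.55, SE 0.186, adjusted p = 0.193), with an overlap of 1 library, and passed with DESeq2 (adjusted p = 0.0364). *Gpi1*, an enzyme of upper glycolysis, was 549, 592 and 582 CPM in WT and 720.0, 837, 916, 643 and 774 CPM in LSD1-mKO Sol (0.42, SE 0.157, adjusted p = 0.229). *Phka2* was 12.2, 10.6 and 12.4 CPM in WT and 12.6 to 20.8 CPM in LSD1-mKO Sol (0.47, SE 0.174, adjusted p = 0.229).

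*Gyg* was lower without overlap in Sol as well, with 587, 539 and 639.9 CPM in WT and 169, 332, 283, 481 and 479 CPM in LSD1-mKO (−0.77, SE 0.284, adjusted p = 0.229). *Pgm2* was 373, 441 and 391 CPM in WT and 277, 299.5, 336, 276 and 368 CPM in LSD1-mKO Sol (−0.38, SE 0.146, adjusted p = 0.242). LSD1-mKO Sol replicate 1 held the lowest value of the 8 Sol libraries for 12 of 41 members, among them *Gyg*, *Pfkfb1*, *Phka1*, *Phkb*, *Ppp1r3a*, *Gbe1*, *Ugp2* and *Slc16a1*; whether that library's tissue differed was not tested. *Pfkfb1* held 6.44 CPM there against 14.6 to 66.4 CPM in the other Sol libraries.

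**Figure D3:**
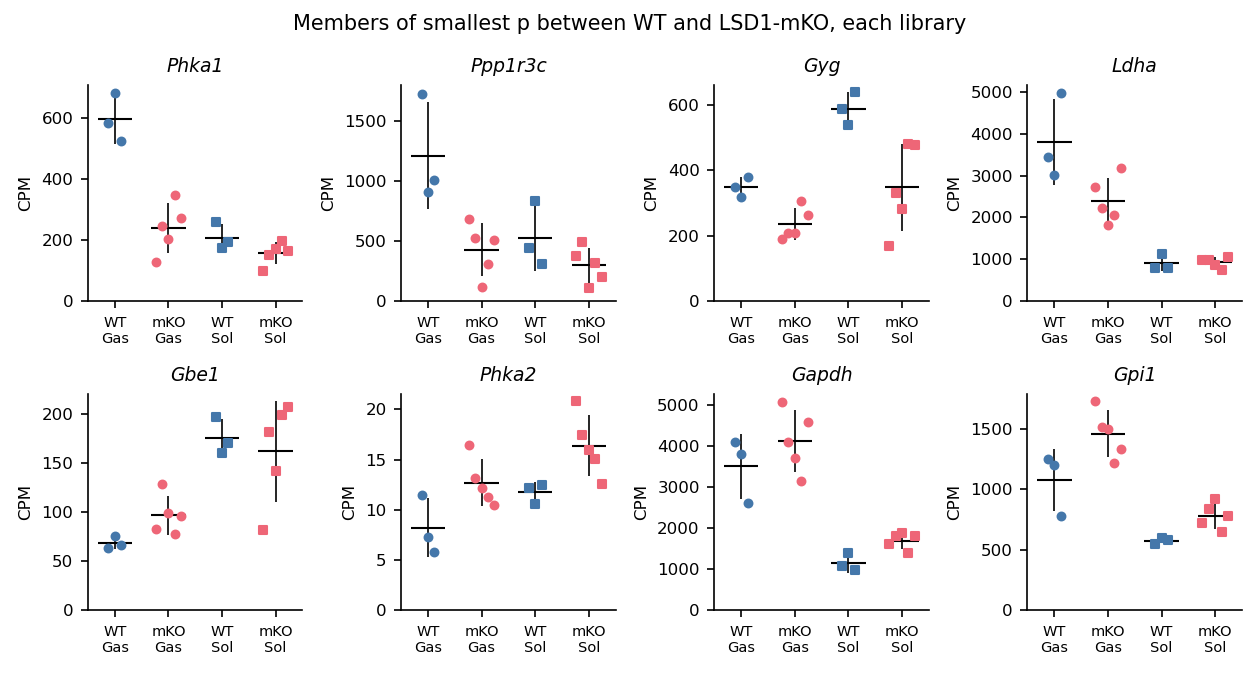
CPM in each library for *Phka1*, *Ppp1r3c*, *Gyg*, *Ldha*, *Gbe1*, *Phka2*, *Gapdh* and *Gpi1*, with the mean as a line and the SD as a bar. LSD1-mKO Gas lies below WT Gas without overlap for *Phka1*, *Ppp1r3c* and *Gyg*, and above it for *Gbe1*. In Sol the genotypes overlap for *Phka1*, *Ppp1r3c* and *Gbe1* but not for *Gyg*. The other panels overlap in at least 1 muscle.

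**Figure D4:**
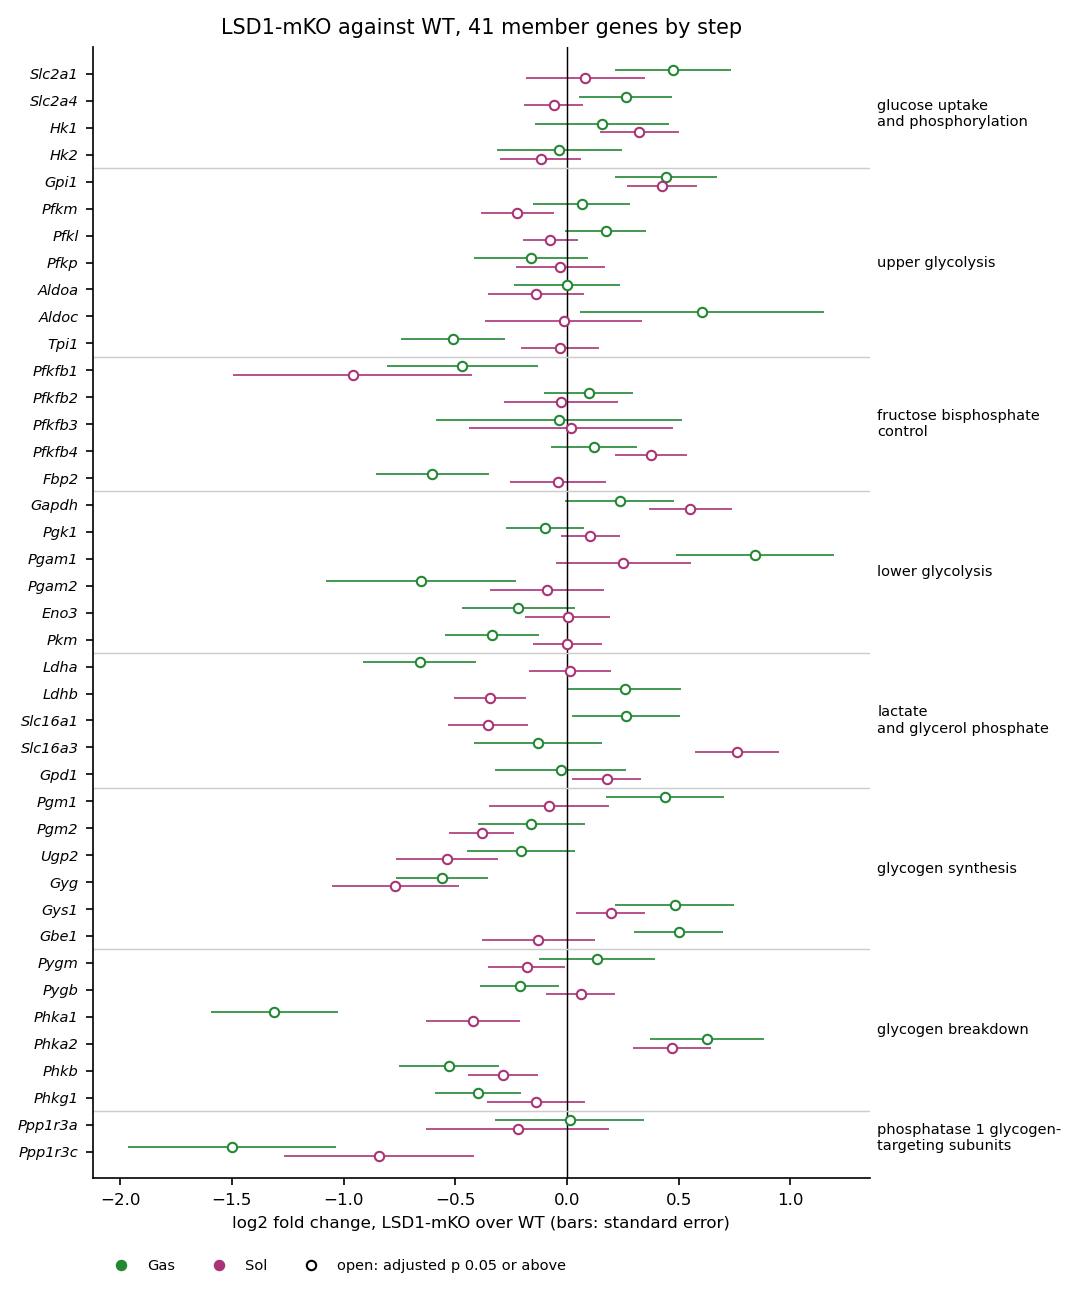
Log2 fold change of LSD1-mKO over WT for the 41 members by step, in Gas (green) and Sol (purple). Bars are the standard error; no member is past an adjusted p of 0.05 in either muscle, so all points are open.

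The genotype difference was compared between the muscles with an interaction term. No member and none of 13749 genes passed (0 percent of genes), and 3 members had an unadjusted p under 0.05, against 4.88% of genes. DESeq2 called 0 members. These 3 were *Slc16a3* (log2 difference −0.91, SE 0.351, adjusted p = 0.944), *Phka1* (−0.90, SE 0.378, adjusted p = 0.987) and *Ldha* (−0.69, SE 0.317, adjusted p = 0.987). Members called between muscles in 1 genotype only, such as *Phka1*, were therefore not shown to differ between genotypes in that fold.

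The isozyme balance was followed with the log2 ratio of the muscle form to its partner (1 read added to each) in 10 pairs. In WT mice no ratio could pass between muscles, because the exact permutation test of 3 against 3 libraries cannot go below p = 0.1. In LSD1-mKO mice 7 of 10 ratios differed, each toward the first-named form in Gas. *Pygm* over *Pygb* was higher by 3.14 and *Slc16a3* over *Slc16a1* by 3.09 (exact permutation test, two-sided, p = 0.00794, adjusted p = 0.0132 over 10 ratios). This test does not use the pairing of the muscles. Within the 5 pairs an exact test cannot go below p = 0.0625, so no ratio could pass, and 8 ratios, these 7 and *Phka1* over *Phka2*, were higher in Gas in 5 of 5 pairs (adjusted p = 0.0781). The *Eno3* over *Eno1* ratio (1.93 higher) rests on 0 to 6 *Eno1* reads.

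*Ldha* over *Ldhb* was 4.26 ± 0.117 in WT Gas (n = 3) and 3.37 ± 0.245 in LSD1-mKO Gas (n = 5) on the log2 scale. In Sol it was −0.10 ± 0.135 in WT and 0.27 ± 0.172 in LSD1-mKO, so that the 2 subunits had nearly equal read counts there. The genotypes did not overlap in either muscle, with the ratio 0.90 lower in LSD1-mKO Gas and 0.37 higher in LSD1-mKO Sol. Each difference had the smallest p an exact permutation test of 3 against 5 libraries allows, 0.0357, and adjusted over 10 ratios they were 0.179 and 0.119. The genotype difference in Gas was 1.26 below that in Sol, which is given as a description. Genotype labels were permuted within the muscles for all 10 ratios, but that p-value is not used, since the opposite directions were seen first. *Phka1* over *Phka2* was 2.05 lower in LSD1-mKO Gas and 0.89 lower in LSD1-mKO Sol, also without overlap in each muscle (exact permutation p = 0.0357 in both, adjusted p = 0.179 in Gas and 0.119 in Sol). *Slc16a3* over *Slc16a1* was 1.16 higher in LSD1-mKO Sol without overlap (exact permutation p = 0.0357, adjusted p = 0.119).

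**Figure D5:**
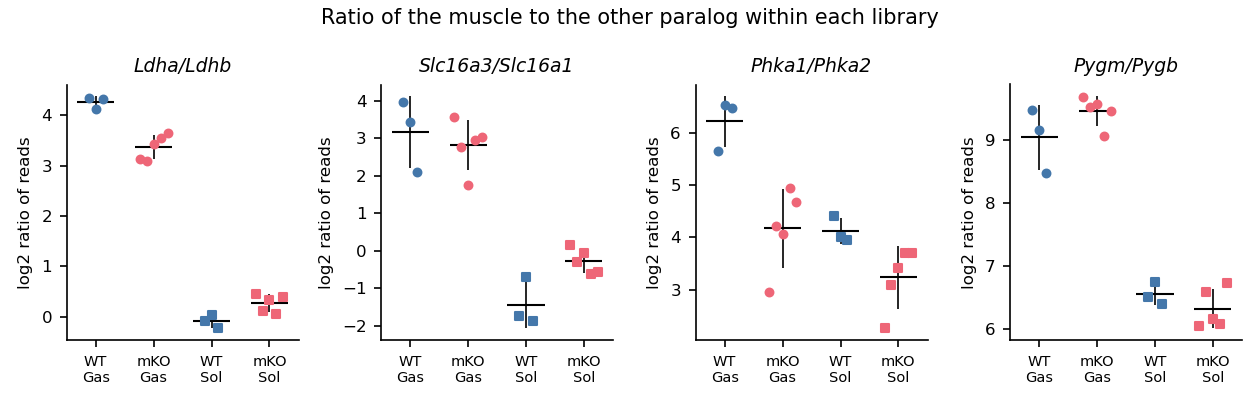
Log2 ratio of *Ldha* to *Ldhb*, *Slc16a3* to *Slc16a1*, *Phka1* to *Phka2* and *Pygm* to *Pygb* in each library of the 4 groups, with the mean as a line and the SD as a bar. *Ldha* to *Ldhb* lies near 4.26 in WT Gas, 3.37 in LSD1-mKO Gas, −0.10 in WT Sol and 0.27 in LSD1-mKO Sol.

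A wider list of 54 genes that regulate or feed the pathway, among them pyruvate dehydrogenase kinases, glucose sensors and mitochondrial shuttles, had 46 members with enough reads. In Gas none passed between genotypes, and in Sol 1 did: *Pdk3*, which phosphorylates and slows pyruvate dehydrogenase, was higher in LSD1-mKO (log2 fold change 1.76, SE 0.302, adjusted p = 0.0256). Over all genes 0.0307% passed between genotypes in Gas and 0.967% in Sol. Between muscles 9 were higher and 2 lower in Gas in WT, and 15 higher and 5 lower in LSD1-mKO mice. The shares over all genes were 3.8% higher and 4.02% lower in WT, and 14.8% higher and 15% lower in LSD1-mKO mice. *Gpd2*, the mitochondrial partner of *Gpd1*, was among the higher genes in both (3.26 in WT and 2.26 in LSD1-mKO), as was *Slc2a3* (2.43 and 2.30), a neuron-type glucose transporter. *Pdk1* was lower in Gas in both (−2.08 and −1.88).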

How the data were processed

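Poly(A) mRNA purified from total RNA of gastrocnemius and soleus was sequenced, 3 WT and 5 LSD1-mKO libraries per muscle, and the deposited counts were whole-number reads per gene that the authors made with STAR and featureCounts 1.5.2 on mm10. Reads mapping to several places were not counted, and no strand option is named. Tables of the authors' own comparisons (log2 fold change, mean log2 CPM, p-value and false discovery rate) were not used. All 16 columns were mapped to samples by name, with 0 left over. Members and lists were chosen with earlier results of these data known.

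Counts were scaled by TMM and tested with edgeR 4.0.16 (quasi-likelihood F-test, R 4.3.3; Benjamini-Hochberg adjusted p under 0.05) after filterByExpr with a minimum count of 10, within each muscle for genotype and within each genotype for muscle. SE was taken as the absolute log2 fold change over the root of F. CPM per kb divides by the exon length of GENCODE transcripts paired with RefSeq mRNA. Ratios were tested by exact permutation (scipy 1.17.1). DESeq2 1.42.0, no filter, no scaling, the fit over all libraries, leaving out libraries and the replicate block were alternatives. The functions were tested on simulated counts. Members were named if they had the 6 smallest p-values in a genotype or muscle comparison or the highest level per kb in their step, 21 in all; others are named for their call or their pair.

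Replicates are separate samples in the labels, but the labels tie no library to an animal. A legend in the paper gives 3 WT and 3 LSD1-mKO mice for the Sol transcriptome, whereas 5 LSD1-mKO Sol libraries were used here. In LSD1-mKO mice same-numbered Gas and Sol libraries deviated together (correlations 0.334, 0.226, 0.359, 0.212 and 0.323), so the numbers pair them. SE and SD include the spread between libraries, while the limit given for a count of 0 covers counting error only.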

Additional observations from a re-analysis of the deposited data

Results flagged for a closer look

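*Slc16a3* in LSD1-mKO Gas replicate 3 stood apart from the other 4 libraries of its group, at 287.8 CPM against 472.7 to 523.4 CPM (gap over range 0.785, where 0.71 is the 95% limit for 5 libraries). That library also held the lowest Gas value for 14 of 41 members, *Slc16a3* among them. Of the 42 groups of 5 examined, about 2.1 would be expected past that limit by chance at 1 in 20, and 1 was found.

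The genotype difference in the *Ldha* to *Ldhb* ratio went opposite ways in the muscles: every LSD1-mKO library lay below every WT library in Gas and above every WT library in Sol. The genotype difference in Gas minus that in Sol was −1.262 on the log2 scale. Genotype labels were permuted within the muscles for this difference. The result is not used as a test, since the comparison was chosen after the ratios were seen. Neither gene passed the interaction test on its own (*Ldha* −0.69 and *Ldhb* 0.58, adjusted p = 0.987 for both).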

How the results depend on the processing

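Among members tested between genotypes in Gas, DESeq2 called 1 and the fit over all 16 libraries 1, where 0 were called otherwise. Over all genes DESeq2 called 132 of 13040 and that fit 62 of 13749. In Sol, no filter called 1, DESeq2 called 2, the replicate block called 2 (*Gyg*, −1.24, adjusted p = 0.0444, and *Pfkfb1*, −2.11, adjusted p = 0.00758) and leaving out the 3 libraries with high ribosomal protein levels called 1. Over all genes these settings called 336 of 20506, 605 of 13342, 412 of 13342 and 23 of 13582, in the same order. For genotype the block compared replicates 1 to 3 only, because no WT library is numbered 4 or 5. In LSD1-mKO Sol replicates 4 and 5, *Pfkfb1* was 44.8 and 58.0 CPM, against 37.7 to 66.4 CPM in WT Sol. *Gyg* was 481 and 479 CPM in those replicates, the highest of the LSD1-mKO Sol libraries. Between muscles in WT the replicate block called 12 (11 higher and 1 lower), no scaling 26 (18 higher and 8 lower), DESeq2 31, the fit over all 16 libraries 27 and leaving out the 3 libraries 33 (23 higher and 10 lower, of 40 tested), against 23. Over all genes, in the same order, 396, 1206 and 1898 of 12938, 2337 of 13749 and 4596 of 13052 were called, against 1011 of 12938. Without scaling the median of all genes was −0.23 in the WT muscle comparison, −0.12 in the LSD1-mKO muscle comparison, 0.17 in the Gas genotype comparison and 0.11 in the interaction. Leaving out 1 library gave 0 to 0 members for genotype in Gas, 0 to 1 in Sol (1 without WT Sol replicate 2), 12 to 28 for muscle in WT, 25 to 30 in LSD1-mKO, 0 to 0 for the interaction and 7 to 8 isozyme ratios. Over all genes the muscle counts then ran from 308 to 1633 in WT and from 2986 to 4005 in LSD1-mKO mice. Leaving out 1 library lost the WT muscle call in 5 of 6 cases for *Slc2a1* and *Pfkm*, in 3 for *Gapdh*, *Pgam2*, *Pygm* and *Slc16a1*, in 2 for *Ldha*, *Tpi1*, *Pgk1* and *Pkm*, and in 1 for *Gbe1* and *Phka1*. The LSD1-mKO call was lost in 8 of 10 cases for *Hk1*, 7 for *Slc2a1* and *Aldoc*, 6 for *Gbe1* and 5 for *Ppp1r3a*. No member's call changed direction in the settings run. The median over the members, near 0 between genotypes, changed sign: in Gas to 0.13 without scaling, 0.09 without WT Gas replicate 1, 0.11 without WT Gas replicate 2 and 0.0037 without LSD1-mKO Gas replicate 3, and in Sol to 0.03 without scaling and 0.06 without WT Sol replicate 2. In WT, where the numbers are shared but the libraries did not deviate together (Gas and Sol correlations 0.123, −0.515 and −0.257, genotype in Gas 0.192, 0.307 and −0.160, genotype in Sol 0.0919, −0.00616 and 0.128), the block is a check of calls only. In LSD1-mKO mice, where the numbers do pair the muscles, the block called 35 members and 5067 of 13151 genes. It changed no other count of members. Tested within these pairs, an alternative chosen after seeing the data, 0 isozyme ratios passed, because the smallest p possible is 0.0625. For each call that changed, the cause was not tested.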
